A study of Oryctolagus cuniculus with 4 samples.

Results

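The genes described here are the cell cycle and mitosis genes of a rabbit ear hypertrophic scar (HS) data set. They were chosen by a rule on gene names, with earlier results of these data known. The rule took the A, B, D and E cyclins, the numbered cyclin-dependent kinases (CDK) and CDC genes without the CDC42 family, the kinesins (KIF), the centromere proteins (CENP), NUF2, the BUB, Aurora and polo-like kinases, the condensin and SMC subunits, MKI67 and TOP2A. It found 92 of the 13913 genes in the table. The symbols MKI67, CCND1, CCND2, CCNE1, CDK4, BUB1B, BUB3, AURKA, KIF23 and SMC1A gave no row and were not analysed here.

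Single cell RNA libraries were made from 4 rabbit ear scars, 2 libraries in each of 2 groups. All animals were wild type (WT) female rabbits aged 10 to 12 weeks, and every scar was raised by wounding the ventral ear. The HS group (HS-1 and HS-2) was left without treatment. The drug-loaded MNs group (MNs-1 and MNs-2) received separating microneedles (MNs), which are patches of small needles, once a week for 3 weeks. Their tips, made of crosslinked gelatin methacryloyl, stay in the skin and release drug from a 5-fluorouracil acetic acid prodrug. Tissue of both groups was taken on day 43. No library with drug-free MNs is among these samples, so needle and drug cannot be told apart. The study calls the libraries of a group biologically independent. The labels do not name the animals, and p-values measure only the spread between these libraries.

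Each library gave 1 value per gene over all its cells, printed here in units, where 1 unit is 1 part in 1000000 of the library total. The study gives cell totals per group, but the cells and reads behind each library were not given in the sources used here. Between 11844 and 12059 genes lay above 0 in a library. Mitochondrially encoded genes took 2.75% to 2.80% of the total in HS and 4.37% to 4.58% in drug-loaded MNs. The 92 genes together took 0.260% in HS-1, 0.248% in HS-2, 0.329% in MNs-1 and 0.244% in MNs-2.

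A dividing cell passes through G1, copies its DNA in S phase, and then condenses and separates the copies in mitosis. Cyclins switch on their CDK partners in turn, and many genes of S phase, G2 and mitosis are transcribed only while a cell cycles, so their RNA in a tissue follows how many of its cells are cycling. In skin, most divisions take place in the basal layer of the epidermis, and fibroblasts divide during scar formation. 5-Fluorouracil blocks thymidylate synthase and acts mainly on cells that copy their DNA. Many genes that carry a cell cycle name do other work: CDK12 and CDK13 act on RNA polymerase II, and KIF5B carries cargo along microtubules. The members were therefore sorted by textbook role, with earlier results of these data known. The sort gave 35 cycling-phase genes, whose RNA peaks between S phase and mitosis, and 34 genes placed outside the cycle. It left 23 others with roles in the cycle but a less periodic RNA or with less certain placement. Some genes placed outside the cycle, such as CDK7 and KIF2A, also act in it.

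The cycling-phase genes differed more between the 2 drug-loaded MNs libraries than between the groups. On the log2(units + 1) scale, their median difference was 1.35 between MNs-1 and MNs-2. It was 0.65 between HS-1 and HS-2, and the median log2 fold change between the groups was also 0.65. All 35 were highest in MNs-1, against 40.1% of all 9348 genes tested, and 27 of 35 were lowest in HS-2, against 22.7% of all genes. Their summed level was 553 units in HS-1, 303 in HS-2, 1081 in MNs-1 and 381 in MNs-2. MNs-1 thus held 2.84 times the sum of MNs-2, and HS-1 held 1.82 times the sum of HS-2. The libraries of the 2 groups overlapped, since HS-1 lay above MNs-2. The HS mean was 428 ± 176 units and the drug-loaded MNs mean 731 ± 495 (SD over 2 libraries), and the two-sided exact permutation p was 0.667, where 0.333 is the smallest p that 2 libraries against 2 can give. In these values, fewer cells of a type and less RNA per cell cannot be told apart.

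The sum of the 34 genes placed outside the cycle did not follow this order. They summed to 1171 units in HS-1, 1362 in HS-2, 1322 in MNs-1 and 1252 in MNs-2, with a ratio of the group means of 1.02 and an exact permutation p of 1. Of their 30 tested genes, 0 had at least a 2-fold higher value in MNs-1 than in MNs-2, while 31 of the 35 cycling-phase genes did. In HS, 15 of the 35 were at least 2-fold higher in HS-1 than in HS-2, against 0 of the 30. The median ratio of MNs-1 to MNs-2 was 2.92 over the cycling-phase genes and 1.08 over those outside the cycle. For HS-1 to HS-2 the median ratios were 1.75 and 0.754, and 9 of the 30 genes outside the cycle were higher in HS-1.

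**Figure D1:**
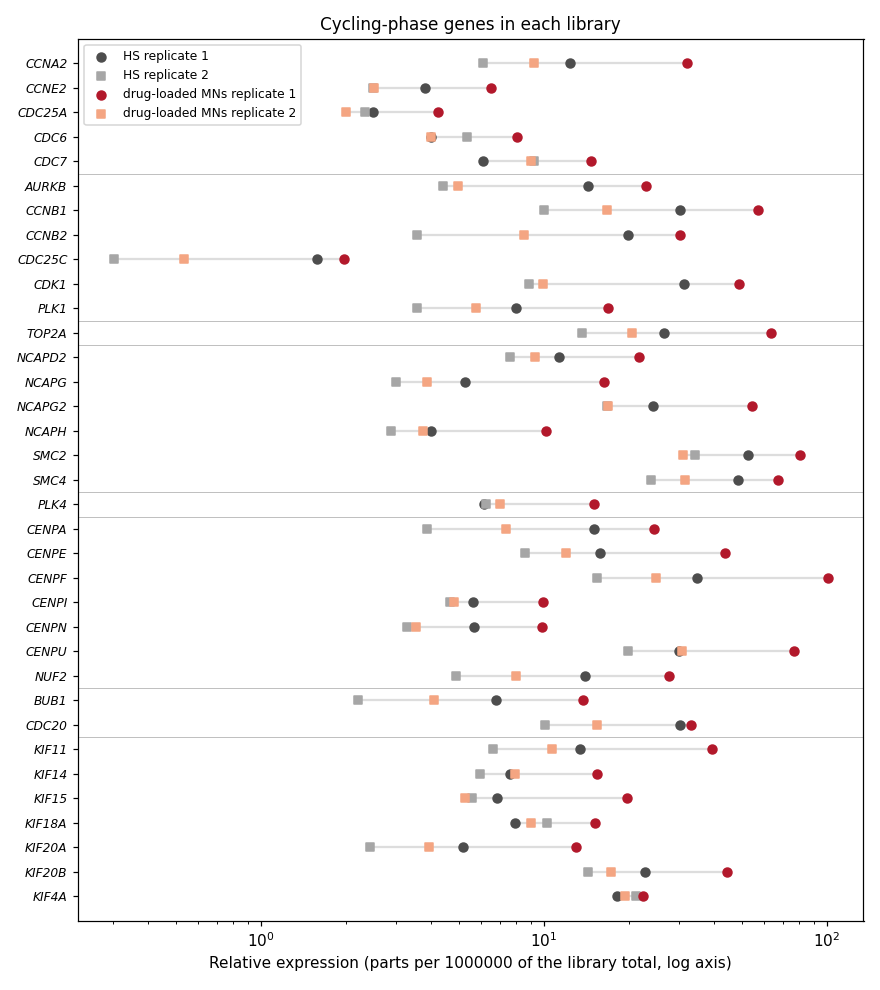
Level of each of the 35 cycling-phase genes in the 4 libraries, in units on a log axis, with grey lines from the lowest to the highest library and thin rules between roles. The red points of MNs-1 lie rightmost in all 35 rows, and the light grey squares of HS-2 lie leftmost in 27.

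Across the groups, 0 of the 86 members tested passed an adjusted p of 0.05 (limma, Benjamini-Hochberg over 9348 genes, of which 0.0428% passed). At an unadjusted p under 0.05, 1 of 86 was higher in drug-loaded MNs, where 7.26% of all genes were, and 0 of 86 was lower, where 1.39% of all genes were. 15 of 86 members lay in both drug-loaded MNs libraries above both HS libraries, against 26.6% of all genes. For 2 of 86, both drug-loaded MNs libraries lay below both HS libraries, against 11.2% of all genes. The median log2 fold change, on the log2(units + 1) scale, was 0.34 over the 86 members and 0.12 over all genes. It was 0.65 over the cycling-phase genes, whose values ran from 0.08 to 1.08, and 0.17 over the genes outside the cycle. The SE of these differences had a median of 0.50 over the cycling-phase genes, 0.29 over the genes outside the cycle and 0.28 over all genes.

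These group differences rested on single libraries. Without MNs-1, the median over the cycling-phase genes was -0.04 and the median over all members -0.0059. Without MNs-2, it was 1.39 over the cycling-phase genes, and 7 members passed the adjusted threshold in limma, namely CCNA2, CENPE, CENPF, CENPU, KIF11, NCAPG and TOP2A, all higher in MNs-1 than in HS, where 0.806% of all genes passed. That fit takes the lone MNs-1 library to vary as the HS libraries do. Without HS-1 the cycling-phase median was 1.002, and without HS-2 it was 0.29.

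Other scalings moved the median over all genes from 0.12 to -0.01 (median ratio) and -0.02 (quantile). Under them the cycling-phase median was 0.51 and 0.43, and the median of the genes outside the cycle was 0.04 and 0.02. KIF4A turned lower in drug-loaded MNs under both, and CDC25A and CDC6 did so under quantile normalization. Over all 86 tested members, quantile normalization turned the direction of 14 and median ratio scaling that of 15. After median ratio scaling, 33 of the 35 cycling-phase genes were still highest in MNs-1.

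Among the roles with more than 1 gene, mitotic entry had the widest spread within the groups, with a median log2 difference of 1.71 between MNs-1 and MNs-2 and of 1.503 between HS-1 and HS-2. CDK1, the kinase whose activity starts mitosis, lay at 31.2 units in HS-1, 8.87 in HS-2, 48.8 in MNs-1 and 9.96 in MNs-2. Its partner CCNB1, cyclin B1, lay at 30.3, 10.0, 57.0 and 16.8 units in the same order of libraries. CCNB2, the second B cyclin, lay at 19.8, 3.56, 30.2 and 8.53 units. In all of them both first replicates lay above both second replicates, and the groups overlapped. AURKB, the kinase that corrects faulty attachments of chromosomes to the spindle, followed the same order with 14.3, 4.41, 23.0 and 4.99 units. PLK1, a kinase that drives entry into and passage through mitosis, was measured at 7.96, 3.56, 16.8 and 5.77 units. Between groups, CDK1 had a log2 fold change of 0.39 with a 95% interval from -1.38 to 2.16. The log2 fold change was 0.79 for CCNB1, 0.82 for CCNB2, 0.40 for AURKB and 0.78 for PLK1. The 95% intervals of all 5 included 0. CDC25C, a phosphatase that activates CDK1, lay at 1.58, 0.303, 1.96 and 0.536 units, while CDC25B, a related phosphatase, was less variable with 38.9, 37.6, 40.5 and 26.3 units. CDC25B was the only one of these 7 genes with a lower mean in drug-loaded MNs, by a log2 fold change of -0.22.

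This order of libraries, MNs-1 above HS-1 above MNs-2 above HS-2, was singled out after the values were seen. It held for 25 of the 35 cycling-phase genes and for 29 of all 86 members tested, against 4.96% of all genes. MNs-1 lay above HS-1 and MNs-2 above HS-2 in 28 of the 35 and in 47 of the 86, as in 3311 of all 9348 genes. Only the replicate number links HS-1 with MNs-1 and HS-2 with MNs-2, and the labels name no shared animal, day or batch.

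**Figure D2:**
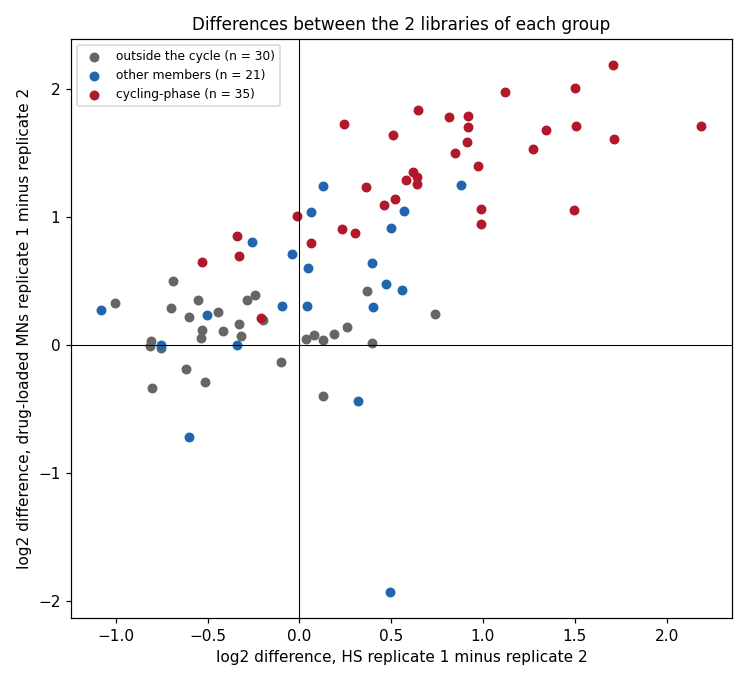
Each point is 1 tested member, placed by its log2 difference between HS-1 and HS-2 (horizontal) and between MNs-1 and MNs-2 (vertical). All 35 cycling-phase genes (red) lie above 0 on the vertical axis and 30 of them to the right of 0, while the 30 genes outside the cycle (grey) stay within 2-fold on the vertical axis.

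TOP2A, the topoisomerase that untangles DNA copies and a common marker of proliferating cells, lay at 26.6 units in HS-1, 13.7 in HS-2, 63.2 in MNs-1 and 20.4 in MNs-2. Its log2 fold change was 0.88 ± 0.53 (SE, n = 2 per group), with an adjusted p of 0.739 in limma. The 6 condensin genes, which compact chromosomes, were all highest in MNs-1. NCAPG, a regulatory subunit of condensin I, lay at 5.28, 3.01, 16.3 and 3.86 units, and the 2 ATPase core subunits SMC2 and SMC4 at 52.8, 34.1, 80.5 and 31.0 units and at 48.5, 24.0, 67.1 and 31.6 units. The median log2 fold change over condensin was 0.57, with 0 of 6 past the adjusted threshold. SMC3, the cohesin subunit that holds DNA copies together, differed from these: it lay at 142, 152, 176 and 143 units, with a log2 fold change of 0.11 that turned to -0.03 under median ratio scaling.

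The 16 kinetochore and centromere genes, which tie chromosomes to the spindle, comprised 7 cycling-phase genes and 9 with a less periodic or less certain RNA pattern. CENPF, a large coiled-coil protein of the outer kinetochore that appears in G2, lay at 34.7 units in HS-1, 15.4 in HS-2, 101 in MNs-1 and 24.8 in MNs-2. Its log2 fold change of 1.08, with a 95% interval from -0.39 to 2.56, was the highest among the cycling-phase genes. CENPE, the kinetochore motor, lay at 15.8, 8.55, 43.6 and 12 units, and CENPA, the histone variant that marks the centromere, at 15.0, 3.87, 24.6 and 7.37 units. NUF2, a subunit of the complex that binds microtubules, lay at 13.9, 4.89, 27.8 and 7.99 units. In each of these 4 genes HS-1 exceeded MNs-2.

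CENPU, a subunit of the inner kinetochore, was the one named kinetochore gene whose groups did not overlap, with 30.1 and 19.8 units in HS against 76.6 and 30.8 in drug-loaded MNs. Its log2 fold change was 0.97 ± 0.43 (SE), with an unadjusted p of 0.0576 and an adjusted p of 0.602 in limma. The gap between HS-1 and MNs-2 was small beside the distance from MNs-1 to MNs-2. The genes of this role outside the cycling-phase list were mixed. CENPT lay at 2.89 units in HS-1, 1.11 in HS-2, 3.49 in MNs-1 and 0.887 in MNs-2. MNs-1 also exceeded MNs-2 3.50-fold in CENPP, 3.46-fold in CENPL and 2.103-fold in CENPC. CENPV, CENPS and CENPH varied less: CENPV lay at 86.6, 65.5, 77.8 and 63.3 units and CENPH at 18.8, 19.3, 21.5 and 12.8 units. CENPH and CCNB1 are direct neighbours among the protein-coding genes that RefSeq places on mOryCun1.1, an assembly of the rabbit genome, yet CCNB1 differed 3.40-fold between MNs-1 and MNs-2 and CENPH 1.68-fold. CENPO lay below the filter on low values.

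The 7 mitotic kinesins, motors that build the spindle and complete division, were all highest in MNs-1, with a median log2 fold change of 0.65. KIF11, which pushes the spindle poles apart, lay at 13.4 units in HS-1, 6.62 in HS-2, 39.1 in MNs-1 and 10.6 in MNs-2, a log2 fold change of 1.04 with an adjusted p of 0.713 in limma. KIF20A, which acts in cytokinesis, lay at 5.17, 2.43, 13.0 and 3.94 units. KIF14, another kinesin of cytokinesis, had groups that did not overlap, with 7.58 and 5.96 units against 15.4 and 7.93, but HS-1 and MNs-2 nearly met. KIF4A, a chromosome-bound kinesin, was the flattest of the group with 18.2, 21.2, 22.4 and 19.3 units.

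Of the spindle checkpoint and anaphase genes, the 2 that peak in mitosis followed the order of CCNB1. BUB1, a checkpoint kinase, lay at 6.75 units in HS-1, 2.20 in HS-2, 13.7 in MNs-1 and 4.11 in MNs-2. CDC20, the activator of the anaphase-promoting complex, lay at 30.3, 10.1, 33.0 and 15.4 units. CDC27, CDC26 and CDC23 are subunits of that complex and are present through the cycle. CDC27 lay at 49.7, 48.3, 71.2 and 57.4 units, with groups that did not overlap, a log2 fold change of 0.38 and an adjusted p of 0.743 in limma. CDC34, a ubiquitin-conjugating enzyme placed in this group by its name, was high only in MNs-2, with 23.4, 16.3, 14.5 and 57.7 units. It was singled out after its values were seen, and its log2 fold change of 0.55 had an adjusted p of 0.861 in limma.

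The 7 G1 and S phase genes were all highest in MNs-1, with a median log2 fold change of 0.32. CCNA2, cyclin A2, which acts in S phase and early mitosis, lay at 12.4 units in HS-1, 6.09 in HS-2, 32.2 in MNs-1 and 9.21 in MNs-2. CCNE2, an E cyclin of the entry into S phase, lay at 3.82, 2.50, 6.49 and 2.52 units. CDC6, which loads the replicative helicase, lay at 4.01, 5.35, 8.02 and 3.99 units, so that only MNs-1 stood apart. CDK2, the partner of cyclins E and A, varied less, with 47.8, 36.1, 49.6 and 31.4 units and a log2 fold change of -0.07. CDK6, a G1 kinase, lay at 14.3, 24.8, 26.2 and 26.1 units. HS-1 alone was low, and the groups did not overlap. CCND3, the D cyclin found by the rule, lay at 71.0, 51.0, 57.4 and 41.1 units, a log2 fold change of -0.30 with a 95% interval from -0.95 to 0.34.

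Among the polo-like kinases, PLK4, which starts the copying of centrioles, lay at 6.16 units in HS-1, 6.24 in HS-2, 15.0 in MNs-1 and 6.98 in MNs-2. Its groups did not overlap, although MNs-2 lay close to both HS libraries. CENPU, KIF14 and PLK4 were the 3 of 35 cycling-phase genes with both treated libraries above both HS libraries, against 26.6% of all genes. PLK2 and PLK3 are induced by stress and growth signals, and their levels did not go with those of PLK1. PLK3 lay at 185 units in HS-1 and 148 in HS-2, against 96.8 in MNs-1 and 131 in MNs-2, lower in both treated libraries. Its log2 fold change was -0.55 ± 0.25 (SE), with a 95% interval from -1.13 to 0.03, an unadjusted p of 0.0613 and an adjusted p of 0.616 in limma. PLK2 lay at 58.9, 89.7, 59.7 and 98.9 units, with both second replicates above both first replicates. Its log2 fold change of 0.08 turned negative under both other scalings.

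**Figure D3:**
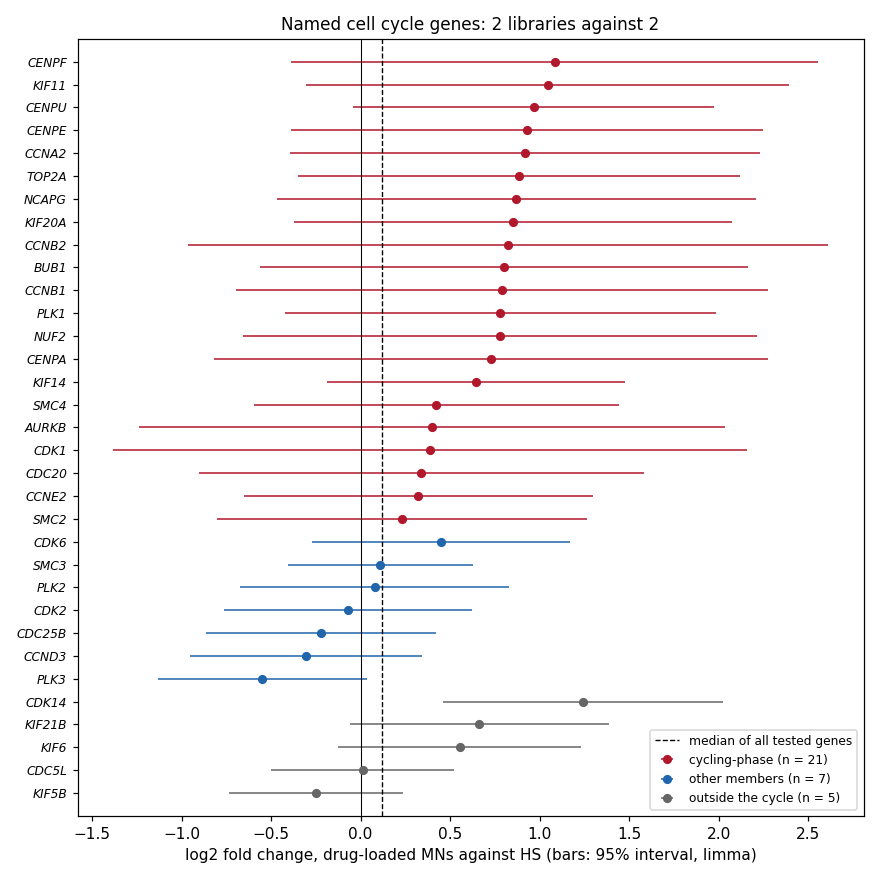
Log2 fold change between drug-loaded MNs and HS for the 33 named members that were tested, with 95% intervals from limma as bars and the median of all tested genes (0.12) as a dashed line. The cycling-phase genes (red) lie right of 0 with wide intervals that all include 0, and CDK14 is the 1 gene whose interval does not.

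CDK14 was the member with the smallest p and works outside the core cycle, in Wnt signalling with its membrane-bound cyclin Y. It lay at 6.58 units in HS-1, 11.2 in HS-2, 26.1 in MNs-1 and 18.1 in MNs-2. Both drug-loaded MNs libraries lay above both HS libraries. The log2 fold change was 1.24 ± 0.33 (SE, n = 2 per group), with a 95% interval from 0.46 to 2.03, an unadjusted p of 0.00670 and an adjusted p of 0.344 in limma. Of the 10 tested CDKs outside the core cycle, 5 had groups that did not overlap, all with higher values in drug-loaded MNs, where 26.6% of all genes did. They were CDK12, CDK14, CDK16, CDK17 and CDK18, and the log2 fold changes without CDK14 ran from 0.13 (CDK16, which turned lower under median ratio scaling) to 0.43.

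The 16 genes in the role of transport and other kinesins mostly carry vesicles and organelles or shape microtubules. KIF1BP, placed here by its name, binds kinesins and is not one itself. Of the 16 genes, 14 were tested. Their median log2 fold change was 0.20, which was 0.06 and 0.01 under the other scalings. KIF5B, the conventional kinesin heavy chain, lay at 367 units in HS-1, 335 in HS-2, 299 in MNs-1 and 290 in MNs-2. The groups did not overlap, and the log2 fold change was -0.25 ± 0.21 (SE). KIF21B lay at 1.36, 1.16, 2.12 and 3.11 units and KIF6 at 1.68, 1.87, 2.89 and 3.25 units, close to the filter of 1 unit. Their log2 fold changes were 0.66 and 0.55, with adjusted p-values of 0.628 and 0.700 in limma. CDC5L, a splicing factor and the highest of the CDC-named genes of other pathways, was level with 102, 118, 119 and 103 units. KIF2B was listed at 0 in all 4 libraries, and CDK15, CDK20, CDC20B and KIF17 stayed below the filter.

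Other genes of the same pathways, outside the naming rule, were read from lists of textbook genes. Of 39 mitotic genes, 22 were in the table, and 20 of these were highest in MNs-1. 21 had higher values in the first than in the second replicate in both groups, as did 2595 of all 9348 genes. ASPM, a spindle pole protein, lay at 27.5 units in HS-1, 13.5 in HS-2, 67.9 in MNs-1 and 21.9 in MNs-2, and TPX2, a spindle assembly factor, at 27.7, 14.3, 52.2 and 16.6 units. The median log2 fold change of these 22 was 0.58, and 0 of 22 passed either the adjusted threshold or an unadjusted p under 0.05.

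The S phase genes went with the mitotic genes in part. Of 34 genes, 17 were in the table, and 15 of them were highest in MNs-1. In both groups, 13 of the 17 had higher values in the first than in the second replicate. MNs-2 was the lowest library for 11 of the 17, and for 6 of the 22 mitotic genes. PCNA, the sliding clamp of replication, lay at 172, 114, 183 and 110 units. TYMS, thymidylate synthase, the enzyme that 5-fluorouracil inhibits, lay at 53.4, 32.6, 64.5 and 27.8 units, a log2 fold change of 0.02. GMNN, geminin, which blocks a second round of replication, lay at 28.5, 31.7, 22.7 and 19.6 units. It was the 1 of the 17 genes with both treated libraries below both HS libraries, where 11.2% of all genes were. Its log2 fold change was -0.49, with an adjusted p of 0.674 in limma. For 2 of the 17, DTL and POLA1, both treated libraries lay above both HS libraries, where 26.6% of all genes did. The median over the 17 genes was 0.21, and 0 of 17 passed either threshold.

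No inhibitor or regulator of the cycle on the lists passed the test either. Of 11 CDK inhibitors and pocket proteins, 8 were in the table. CDKN1A, the p21 inhibitor that arrests cells after damage, lay at 1205, 1458, 715 and 1156 units. Both treated libraries lay below both HS libraries, as for 11.2% of all genes, and its log2 fold change of -0.54 had an adjusted p of 0.702 in limma. RBL1 was the 1 of the 8 with both treated libraries above both HS libraries, where 26.6% of all genes did. CDKN3, a phosphatase whose RNA peaks in mitosis, lay at 23.6, 8.85, 46.5 and 17.5 units in the order of CCNB1. Of 16 E2F, MYBL and FOXM1 family factors, 12 were in the table, with a median log2 fold change of 0.17 that was -0.05 under quantile normalization. E2F3 was the 1 of the 12 whose groups did not overlap, with higher values in drug-loaded MNs. FOXM1, an activator of mitotic genes, lay at 3.41, 1.81, 6.68 and 1.82 units. In both lists 0 genes passed the adjusted threshold or an unadjusted p under 0.05.

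Markers of the cell types in the tissue were set beside these values. Basal keratinocyte markers (6 of 8 in the table) summed to 8734 units in HS-1, 6282 in HS-2, 8431 in MNs-1 and 4525 in MNs-2, a sum carried mostly by the basal keratins KRT5 and KRT14. KRT5 lay at 4485, 3038, 4500 and 1887 units and KRT14 at 3282, 1874, 2451 and 1666. The first replicate was higher in both groups for 3 of the 6 markers, while COL17A1, TP63 and DST were lower in HS-1 than in HS-2. Suprabasal markers (4 of 8) summed to 36817, 52315, 31363 and 41238 units, higher in the second replicates. Most of this sum came from KRT10, at 31734, 45325, 24607 and 35763 units. KRT1 was the 1 of the 4 with higher values in both first replicates, at 2689, 2542, 3973 and 1940 units. Fibroblast markers (6 of 7) summed to 22996 units in HS-1, 22526 in HS-2, 44682 in MNs-1 and 48616 in MNs-2, and macrophage markers (7 of 8) to 120, 130, 286 and 283. All 13 of these fibroblast and macrophage genes lay above both HS libraries in both treated libraries, where 26.6% of all genes did. All 6 fibroblast and all 7 macrophage markers were higher at an unadjusted p under 0.05 in limma, where 7.26% of all genes were. 0 of them passed the adjusted threshold, with a lowest adjusted p in limma of 0.257 for fibroblast and 0.264 for macrophage markers. Endothelial markers (5 of 7) summed to 191, 189, 146 and 194 units, mostly from VWF, the 1 of the 5 with a lower mean in drug-loaded MNs. Their median log2 fold change was 0.37, and CDH5 had 0.92 with an unadjusted p of 0.0221 and an adjusted p of 0.445 in limma. Of 5 T cell markers 1 matched, CD2, with 0.559, 1.24, 3.73 and 2.31 units. Its unadjusted p was 0.0155 and its adjusted p 0.417 in limma. The part of the cell makeup in the differences of the cycling-phase genes was not tested.

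**Figure D4:**
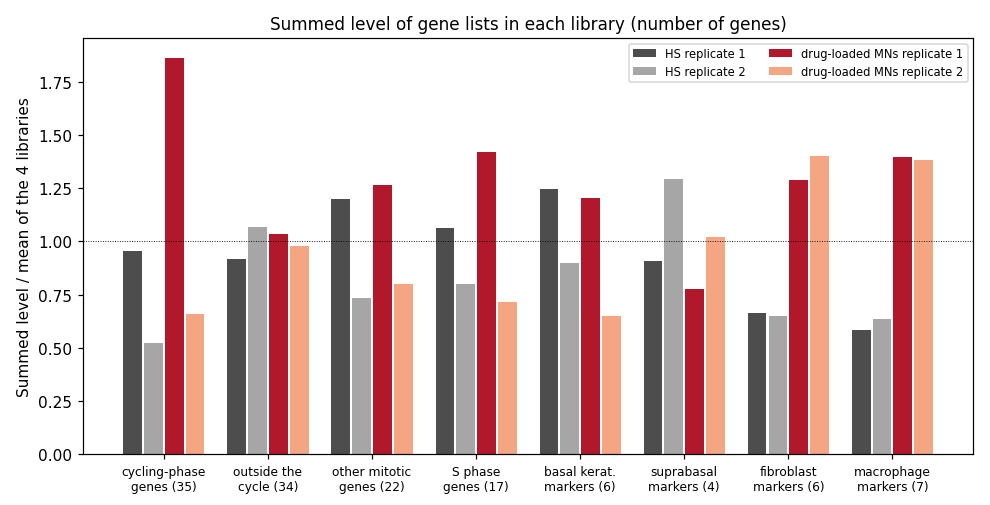
Summed level of gene lists in each library, divided by the mean of the 4 libraries for that list (bars start at 0, the dotted line marks 1, and the number of genes is in brackets). The summed levels of the cycling-phase, other mitotic and S phase genes are higher in the first than in the second replicate of both groups. The other mitotic sum comes mostly from H2AFZ, at 1001, 609, 808 and 673 units in HS-1, HS-2, MNs-1 and MNs-2. The basal keratinocyte sum is also higher in both first replicates, although 3 of its 6 markers do not show this. Fibroblast and macrophage markers are higher in both drug-loaded MNs libraries.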

How the data were processed

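Libraries were prepared with the 10x Genomics single cell 3' v2 protocol after the ventral epidermis and dermis were dissociated. Per the submitters' processing notes, Cell Ranger 2.1.1 was used and the build named was mm10, a mouse build, although the gene identifiers are those of rabbit. How rabbit reads were assigned was not given in the sources used here. The authors filtered cells on the mitochondrial share, used Seurat and mention a correction across samples. How cells were combined into 1 value per library, whether the values passed through that correction, and how doublets were treated were not given. The deposited table, named for FPKM, held a relative expression signal that summed to 10000 in each of its 4 columns, so it was not treated as FPKM.

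Values were rescaled to 1000000 per library. A gene was kept where its mean reached 1 unit (9348 of 13913), and limma 3.58.1 (R 4.3.3) was run on log2(units + 1) by lmFit and trended eBayes, 2 libraries against 2 without covariates. P-values were two-sided and adjusted by the Benjamini-Hochberg method over all tested genes, with a threshold of 0.05. The fit was tested on simulated data with independent noise in each library, and the outcome is not given here. Fold changes on this scale understate the change of low genes. Summed levels were compared by an exact permutation test.

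The members, roles and lists were chosen with earlier results of these data known. Genes were named from a list of 37 members, of which 27 were in the table, together with up to 5 higher and 5 lower members with the smallest unadjusted p whose groups did not overlap, and the highest member of each role left without a name. Other members in the text were named after their values were seen. Alternatives were other scalings, a pseudocount of 0.1 or 5, a minimum mean of 5 or none, untrended eBayes, the replicate number as a block, and leaving out each library. RefSeq symbols of mOryCun1.1 served only to find neighbouring genes, and 89 of the 92 members matched.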

Additional observations from a re-analysis of the deposited data

How the results depend on the processing

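No member passed an adjusted p of 0.05 in limma under either other scaling, either other pseudocount, either other filter, eBayes without trend, or without HS-1, HS-2 or MNs-1. With the replicate number as a block, 2 members passed, CDK14 (adjusted p 0.027) and CENPF (0.028), and 241 of all genes (2.58%) did, where 4 did without it. Deviations of same-numbered libraries correlated at 0.22 across all genes and 0.69 across members, but there were only 2 pairs, the block left 1 residual degree of freedom and no label names a shared animal or batch, so the libraries share only a number. Leaving out 1 library gave 0 to 7 members past the adjusted threshold, with 7 without MNs-2.

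The count of members at an unadjusted p under 0.05 was 1 as reported, 2 under median ratio scaling, 3 without a filter, 2 without trend, 17 with the replicate block, and 2 to 27 without 1 library. Of all genes, 8.65% were at such a p as reported, 7.76% to 8.75% under the alternatives with all 4 libraries and no block, 12.1% with the block, and 5.46% to 15% without 1 library, with 8.53% in the fit without MNs-2 that gave 27 members. The median over members was 0.20 under median ratio scaling, 0.14 under quantile normalization, 0.38 and 0.23 with pseudocounts of 0.1 and 5, and -0.0059 to 0.55 without 1 library.

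Among the named members, directions turned for CDC5L, PLK2 and SMC3 under median ratio scaling (-0.133, -0.063 and -0.034) and for CDC5L and PLK2 under quantile normalization (-0.049 and -0.0060). Without 1 library, log2 fold changes of named members that turned sign ranged for AURKB from -0.61 to 1.40, for CCNB1 from -0.062 to 1.65, for CCNB2 from -0.27 to 1.92, for CCNE2 from -0.22 to 0.87, for CDC20 from -0.41 to 1.09, for CDC25B from -0.53 to 0.079, for CDC5L from -0.089 to 0.11, for CDK1 from -0.70 to 1.48, for CDK2 from -0.39 to 0.25, for CENPA from -0.13 to 1.59, for NCAPG from -0.048 to 1.78, for NUF2 from -0.062 to 1.62, for PLK2 from -0.28 to 0.44, for SMC2 from -0.44 to 0.91, for SMC3 from -0.041 to 0.26 and for SMC4 from -0.11 to 0.95.

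A count test on recovered reads was not run, because only 18.6% to 21.7% of 885 to 1083 low values per library lay within 0.1 of whole steps. Depth is unknown, and no counting interval was computed. The search for promoter motifs was not run, since no promoter sequences were used here.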

Other observations

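The ratio of the cycling-phase sum to the sum of the basal keratinocyte markers was computed after the values were seen. It was 6.33% in HS-1 and 4.83% in HS-2, and 12.8% in MNs-1 and 8.42% in MNs-2, so that on this scale the groups did not overlap. Divided by the sum of the fibroblast markers, the same genes gave 2.40% in HS-1, 1.35% in HS-2, 2.42% in MNs-1 and 0.784% in MNs-2, and the groups overlapped. They also overlapped with the suprabasal keratinocyte or the macrophage markers as denominator, so the separation was seen with 1 of the 4 denominators tried. The choice of the cell type used as denominator thus set whether the libraries separated by group, and these values per library do not show which cells held the RNA.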
